A study of Mus musculus with 6 samples.

Results

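The liver turns cholesterol into bile acids. The 33 genes described here encode enzymes of that synthesis, transporters, and 3 receptors through which bile acids or their signals act. Some of the transporters carry bile acids into or out of the hepatocyte. Others are known mainly for phospholipids, conjugates or drugs, or from other cells. The 33 genes were listed by name and grouped by role as 13 synthesis genes, 6 uptake genes, 6 canalicular export genes, 5 basolateral export genes and 3 receptors. A row of the array data was taken for a gene where the annotation gave it exactly 1 symbol, and of several such rows the brightest on average over the 6 arrays stood for the gene. Of the 33 genes, 32 were measured in this way among 22180 genes of the series. The remaining gene, Slc51b, shares its row with another gene and was not analysed here.

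The samples were whole livers of 3 Pfn2-/- mice, which lack profilin 2, an actin-binding protein, and of 3 wild-type mice, all of strain C57BL/6, described as separate biological replicates. In each genotype replicates 1, 2 and 3 were 9, 8.5 and 8 months old, and the labels give no treatment. Total RNA was measured on 6 Affymetrix arrays, and each value is a normalized expression value on the log2 scale, so that a difference of 1 is a doubling. The number of arrays limits the precision. The labels do not say whether Pfn2 was removed in all cells, how the allele was made, or whether the wild-type animals were littermates. The row of Pfn2 itself lay at 3.88, 3.81 and 3.93 in Pfn2-/- livers and at 4.02, 3.85 and 4.09 in wild-type livers, below the median of the arrays (4.36 to 4.41), and the labels do not say which part of the transcript it covers, so it does not check the genotypes. Of the hepatocyte markers, Alb was the brightest, at 12.93 to 12.97 in Pfn2-/- livers and 12.98 to 13.00 in wild-type livers. The dimmest, Ass1, lay at 5.97 to 6.24 in Pfn2-/- livers and at 6.26 to 6.96 in wild-type livers.

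In the classical pathway cholesterol is first hydroxylated by Cyp7a1 in the endoplasmic reticulum, the steroid ring is then modified, the side chain is shortened in peroxisomes and the product is joined to taurine or glycine. An alternative pathway starts from oxysterols, and whether Cyp8b1 acts decides between cholic acid and the other primary bile acids. Hepatocytes take bile acids up from portal blood at the sinusoidal membrane, secrete them into the canaliculus, and can return them to blood by basolateral exporters when bile acids accumulate.

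No gene of the group passed the test between the genotypes. In the limma comparison of Pfn2-/- with wild type, 0 of the 32 genes had a Benjamini-Hochberg adjusted p under 0.05 (smallest adjusted p = 0.731), against a background of 0% of all 22180 genes. At an unadjusted p under 0.05, used here as a description, there were 6 of 32 genes (18.8%), against 5.29% of all genes. Higher in Pfn2-/- livers were Hsd3b7, Slco1b2 and Abcg2, where 2.67% of all genes were higher at that threshold. Lower were Cyp7a1, Cyp39a1 and Abcc4, where 2.62% of all genes were lower. The 2 groups of arrays did not overlap for 8 of 32 genes (25%), against 9.85% of all genes. The median difference over the 32 genes was 0.06 and the median absolute difference 0.17, beside 0.00 and 0.11 over all genes tested. The background of all genes includes many dim ones and is not matched for brightness. With a filter at the median brightness, 5 of 31 genes (16.1%) had an unadjusted p under 0.05 by limma, against 6.15% of all genes kept. The groups then did not overlap for 7 of the 31, against 10.7% of all genes kept. Each difference below is the mean log2 value of the 3 Pfn2-/- arrays minus that of the 3 wild-type arrays, with its standard error (SE) from the fit.

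**Figure D1:**
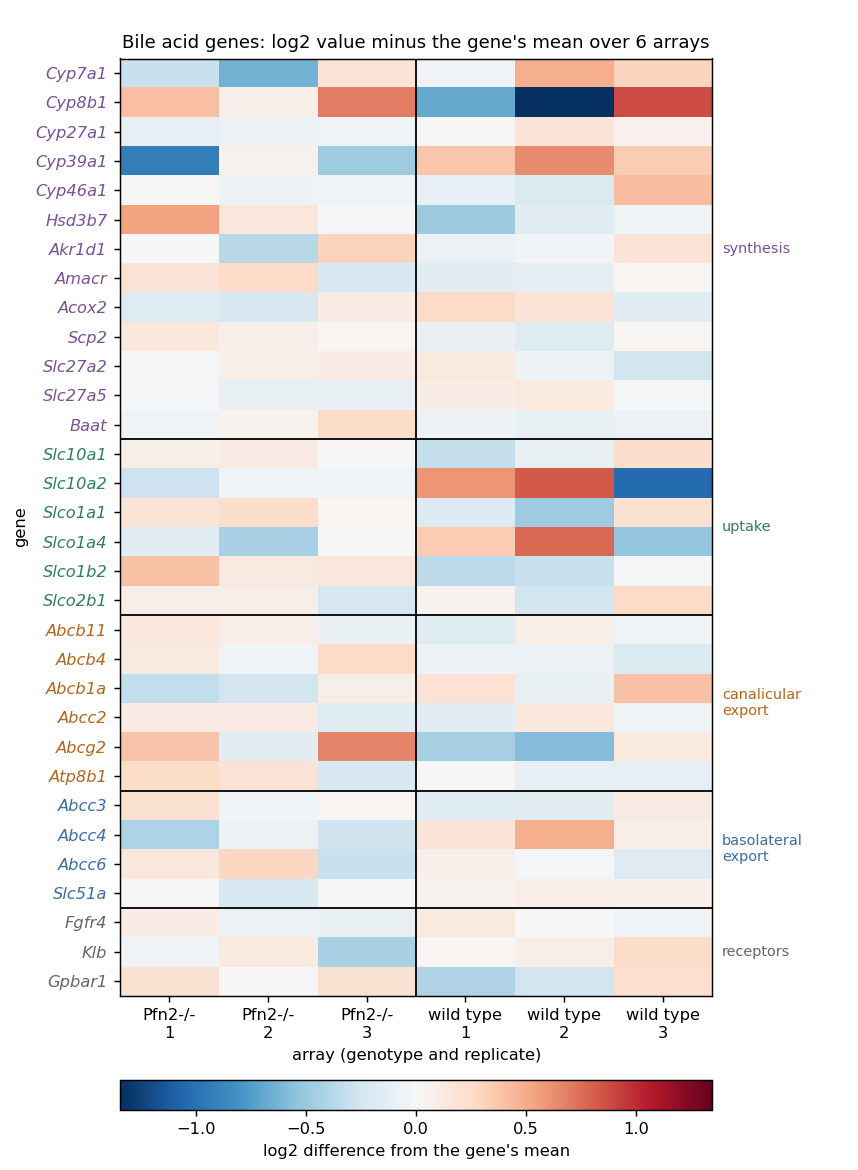
Log2 value of each of the 32 measured genes minus that gene's mean over the 6 arrays, with one column per array (Pfn2-/- left, wild type right) and genes grouped by role. Red is above and blue below the gene's own mean. Cyp8b1 and Slc10a2 spread most among the wild-type arrays, and Cyp39a1 and Abcc4 lay lower in all 3 Pfn2-/- arrays than in any wild-type array.

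**Figure D2:**
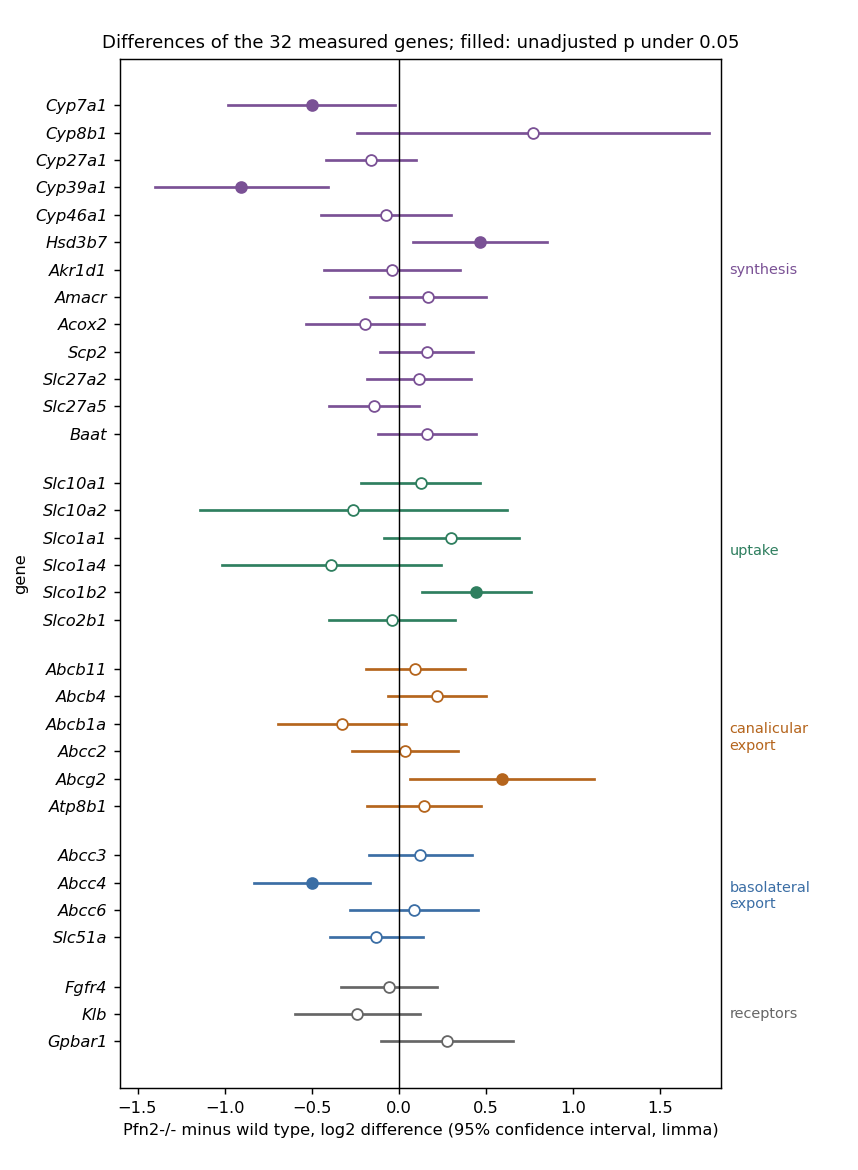
Pfn2-/- minus wild type for each gene as a log2 difference (horizontal axis) with its 95% confidence interval from limma, grouped by role from synthesis to receptors. Filled points are the 6 genes at an unadjusted p under 0.05, with differences from -0.90 for Cyp39a1 to 0.59 for Abcg2, and open points are the others.

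Promoters of 4 of these genes are printed because each carries a difference described below and each stands for another step: 12-hydroxylation (Cyp8b1), ring modification (Hsd3b7), uptake (Slco1b2) and basolateral export (Abcc4). They were chosen with the values known. Each is the 250 bases before the annotated start, 5′ to 3′ on the strand of the gene, from RefSeq on GRCm38.p6, and for Abcc4 the first of 2 listed starts. Capitals mark matches, on either strand, to the letters CAAGGNCA (bound by NR5A receptors such as Nr5a2), CAAAGTCCA (HNF4), GTTAAT (part of the HNF1 site), TTCNNNGAA (STAT factors), TGACNNNGC (NRF2 with a small Maf protein) or CACGTG (the E-box).
Cyp8b1, chr9:121916306-121916555, minus strand: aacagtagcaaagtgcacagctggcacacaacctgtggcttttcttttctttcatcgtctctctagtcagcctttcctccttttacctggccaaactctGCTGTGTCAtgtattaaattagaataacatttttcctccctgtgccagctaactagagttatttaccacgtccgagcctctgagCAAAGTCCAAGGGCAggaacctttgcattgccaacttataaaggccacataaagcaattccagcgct
Hsd3b7, chr7:127800359-127800608, plus strand: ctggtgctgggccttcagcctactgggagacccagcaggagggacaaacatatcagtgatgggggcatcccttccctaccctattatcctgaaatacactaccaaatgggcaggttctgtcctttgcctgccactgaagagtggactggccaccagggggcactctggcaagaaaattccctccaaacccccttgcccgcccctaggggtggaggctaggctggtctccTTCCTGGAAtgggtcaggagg
Slco1b2, chr6:141629268-141629517, plus strand: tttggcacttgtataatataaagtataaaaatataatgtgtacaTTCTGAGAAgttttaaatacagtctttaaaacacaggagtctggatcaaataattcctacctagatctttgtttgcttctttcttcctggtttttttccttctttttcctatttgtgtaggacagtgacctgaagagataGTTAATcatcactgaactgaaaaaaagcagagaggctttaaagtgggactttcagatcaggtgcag
Abcc4, chr14:118706220-118706469, minus strand: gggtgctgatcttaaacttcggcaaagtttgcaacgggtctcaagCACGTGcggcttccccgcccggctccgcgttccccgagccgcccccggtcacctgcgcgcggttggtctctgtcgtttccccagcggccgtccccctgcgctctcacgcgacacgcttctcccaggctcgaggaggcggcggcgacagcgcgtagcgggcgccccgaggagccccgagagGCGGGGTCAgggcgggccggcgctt

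In the Cyp8b1 promoter an HNF4 match at -67 to -59 and an NR5A match at -60 to -53 from the start overlap, so that their capitals run together, and an NRF2 match lies at -151 to -143. The STAT match of Hsd3b7 lies at -21 to -13. The Slco1b2 promoter holds a STAT match at -206 to -198 and an HNF1 match at -66 to -61, and that of Abcc4 an E-box at -205 to -200 and an NRF2 match at -25 to -17. A promoter was listed for 24 of the 32 measured genes. Among these the letters occurred in 3 (NR5A), 1 (HNF4), 2 (HNF1), 3 (STAT), 5 (NRF2) and 2 (E-box). Over the first listed promoter of all 27025 genes in the table, 5.49% held the NR5A letters, 0.38% the HNF4 letters, 6.52% the HNF1 letters, 7.18% the STAT letters, 10.15% the NRF2 letters and 6.05% the E-box. A match is a run of letters and no measure of binding, and factor binding was not measured in these livers.

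Among the enzymes that open bile acid synthesis, Cyp7a1 was lower on average and Cyp39a1 was lower in every Pfn2-/- liver. Cyp7a1, the cholesterol 7α-hydroxylase that limits the rate of the classical pathway, lay at 10.37, 10.03 and 10.85 in Pfn2-/- livers and at 10.62, 11.16 and 10.97 in wild-type livers. Pfn2-/- replicate 3 lay among the wild-type values, so the groups overlapped. The difference was -0.50 (SE 0.21, 95% confidence interval -0.98 to -0.02, unadjusted p = 0.0423 and adjusted p = 0.92 by limma). It was -0.31 without Pfn2-/- replicate 2, and the unadjusted p lay above 0.05 without any 1 of Pfn2-/- replicates 1 and 2 and wild-type replicates 2 and 3. Cyp39a1, which 7α-hydroxylates 24-hydroxycholesterol, lay at 6.84, 7.83 and 7.30 in Pfn2-/- livers and at 8.15, 8.41 and 8.12 in wild-type livers. The groups did not overlap, with Pfn2-/- replicate 2 nearest to wild type. Its difference of -0.90 (SE 0.22, 95% confidence interval -1.40 to -0.41) was 1.87-fold lower in Pfn2-/- livers and had the smallest p of the 32 genes (unadjusted p = 0.00241, adjusted p = 0.731 by limma).

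The hydroxylase genes Cyp27a1 and Cyp46a1 had differences under 0.20 in size. Cyp27a1, the mitochondrial 27-hydroxylase that starts the alternative pathway and also oxidises the side chain in the classical one, lay at 10.17, 10.20 and 10.22 in Pfn2-/- livers and at 10.29, 10.45 and 10.33 in wild-type livers. Every Pfn2-/- value lay below every wild-type value, yet the difference was small, -0.16 (SE 0.12, adjusted p = 0.956 by limma). Cyp46a1, the 24-hydroxylase known mainly from neurons, lay at 5.05 to 5.14 in Pfn2-/- livers and at 4.93 to 5.54 in wild-type livers, a difference of -0.07 (SE 0.17).

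Cyp8b1, the sterol 12α-hydroxylase needed for cholic acid, varied more between arrays than any other gene of the group. It lay at 9.30, 8.96 and 9.59 in Pfn2-/- livers and at 8.21, 7.55 and 9.77 in wild-type livers. Wild-type replicate 3 lay above all Pfn2-/- livers and the other 2 wild-type livers lay below them, so the groups overlapped. The difference was 0.77 (SE 0.45, 95% confidence interval -0.24 to 1.78, unadjusted p = 0.119, adjusted p = 0.953 by limma). Without wild-type replicate 3 it was 1.40 (unadjusted p = 0.000201, adjusted p = 0.141 by limma), and without wild-type replicate 2 it was 0.29. With replicate number, and so age, as a block in the limma fit, the unadjusted p of Cyp8b1 was 0.0201 and the adjusted p 0.822.

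Hsd3b7, which oxidises the 3β-hydroxyl group of the sterol ring after 7α-hydroxylation, was higher in each Pfn2-/- liver than in any wild-type liver. Its values were 8.80, 8.42 and 8.27 in Pfn2-/- livers and 7.77, 8.11 and 8.21 in wild-type livers. The lowest Pfn2-/- value stood just above the highest wild-type value, and the difference was 0.47 (SE 0.17, 95% confidence interval 0.08 to 0.85, unadjusted p = 0.0226, adjusted p = 0.915 by limma). Without Pfn2-/- replicate 1 it was 0.32 and the unadjusted p lay above 0.05, as it did without wild-type replicate 1. Akr1d1, the 5β-reductase of the ring, lay at 9.00 to 9.67 in Pfn2-/- livers and at 9.29 to 9.55 in wild-type livers, a difference of -0.04 (SE 0.17).

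Genes of side-chain shortening and conjugation all differed by less than 0.20 in either direction. Acox2, the branched-chain acyl-CoA oxidase of peroxisomes, differed by -0.19 (SE 0.15), the racemase gene Amacr by 0.17 (SE 0.15) and the acyl-CoA synthetase gene Slc27a2 by 0.12 (SE 0.13). Scp2, whose longer product is the peroxisomal thiolase of this step, differed by 0.16 (SE 0.12). Conjugation needs the bile acid CoA ligase Slc27a5 and the amino acid transferase Baat. Slc27a5 lay at 9.76 to 9.85 in Pfn2-/- livers and at 9.85 to 9.99 in wild-type livers (difference -0.14, SE 0.12). Baat lay at 9.20, 9.31 and 9.51 in Pfn2-/- livers and at 9.19, 9.16 and 9.18 in wild-type livers. These groups did not overlap, but they were parted by 1 hundredth of a log2 unit in replicate 1 of either genotype, and the difference was 0.16 (SE 0.13, adjusted p = 0.956 by limma). Over the 13 synthesis genes 6 differences lay above 0 and 7 below, with a median of -0.04.

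Pairs of enzymes were also set against each other within each array. They were chosen after the values were seen and are given without a test, and only their shift between genotypes has a meaning, since levels of different rows are not comparable. Cyp8b1 minus Cyp7a1 was -1.07, -1.07 and -1.26 in Pfn2-/- livers and -2.41, -3.61 and -1.20 in wild-type livers. The Pfn2-/- livers were alike and wild-type replicate 3 lay among them. Cyp7b1, the oxysterol 7α-hydroxylase of the alternative pathway and not a gene of the list, minus Cyp7a1 was 0.49, 0.42 and 0.06 in Pfn2-/- livers and -0.72, -1.85 and -1.49 in wild-type livers. Here the groups did not overlap. The mean shift of that pair was 1.68, of which 1.18 (SE 0.18, adjusted p = 0.322 by limma) came from Cyp7b1.

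Among uptake carriers, Slco1b2 was higher in every Pfn2-/- liver, and the main carrier gene Slc10a1 was not separated. Slco1b2 encodes Oatp1b2, an organic anion transporter of the sinusoidal membrane that takes up unconjugated bile acids and many drugs. Its values were 11.56, 11.29 and 11.32 in Pfn2-/- livers and 10.81, 10.87 and 11.15 in wild-type livers, and the groups did not overlap. The difference was 0.45, or 1.36-fold higher (SE 0.14, 95% confidence interval 0.13 to 0.76, unadjusted p = 0.0102, adjusted p = 0.825 by limma). Slc10a1, the sodium-dependent carrier NTCP that takes up conjugated bile acids, lay at 11.25, 11.28 and 11.18 in Pfn2-/- livers and at 10.85, 11.07 and 11.41 in wild-type livers. The Pfn2-/- values lay inside the wild-type range, with a difference of 0.13 (SE 0.15, 95% confidence interval -0.22 to 0.47).

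Slc10a2 and Slco1a4 shared a pattern in which wild-type replicate 3 stood below the other wild-type livers. Slc10a2, the carrier ASBT known from ileum and from bile duct cells, lay at 6.62, 6.85 and 6.85 in Pfn2-/- livers and at 7.50, 7.73 and 5.87 in wild-type livers. Its difference was -0.26 (SE 0.39), -0.84 without wild-type replicate 3 (unadjusted p = 0.000322, adjusted p = 0.17 by limma) and 0.09 without wild-type replicate 2. Slco1a4 encodes another organic anion transporter, Oatp1a4, and lay at 8.06, 7.76 and 8.20 in Pfn2-/- livers and at 8.54, 8.97 and 7.67 in wild-type livers. It differed by -0.39 (SE 0.28), by -0.75 without wild-type replicate 3 and by -0.10 without wild-type replicate 2. Pfn2-/- livers lay between the wild-type extremes for both genes. Slco1a1, whose product Oatp1a1 is more abundant in male liver, lay at 9.91, 9.96 and 9.75 in Pfn2-/- livers and at 9.54, 9.24 and 9.93 in wild-type livers, a difference of 0.30 (SE 0.17). Slco2b1 differed by -0.04 (SE 0.16), and its second row, which was dimmer, by -0.33. Slco1a1 and Slco1a4 have similar sequences, as do Abcb1a and Abcb4, so probes of one may detect the other. Over the 6 uptake genes 3 differences lay above 0 and 3 below.

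**Figure D3:**
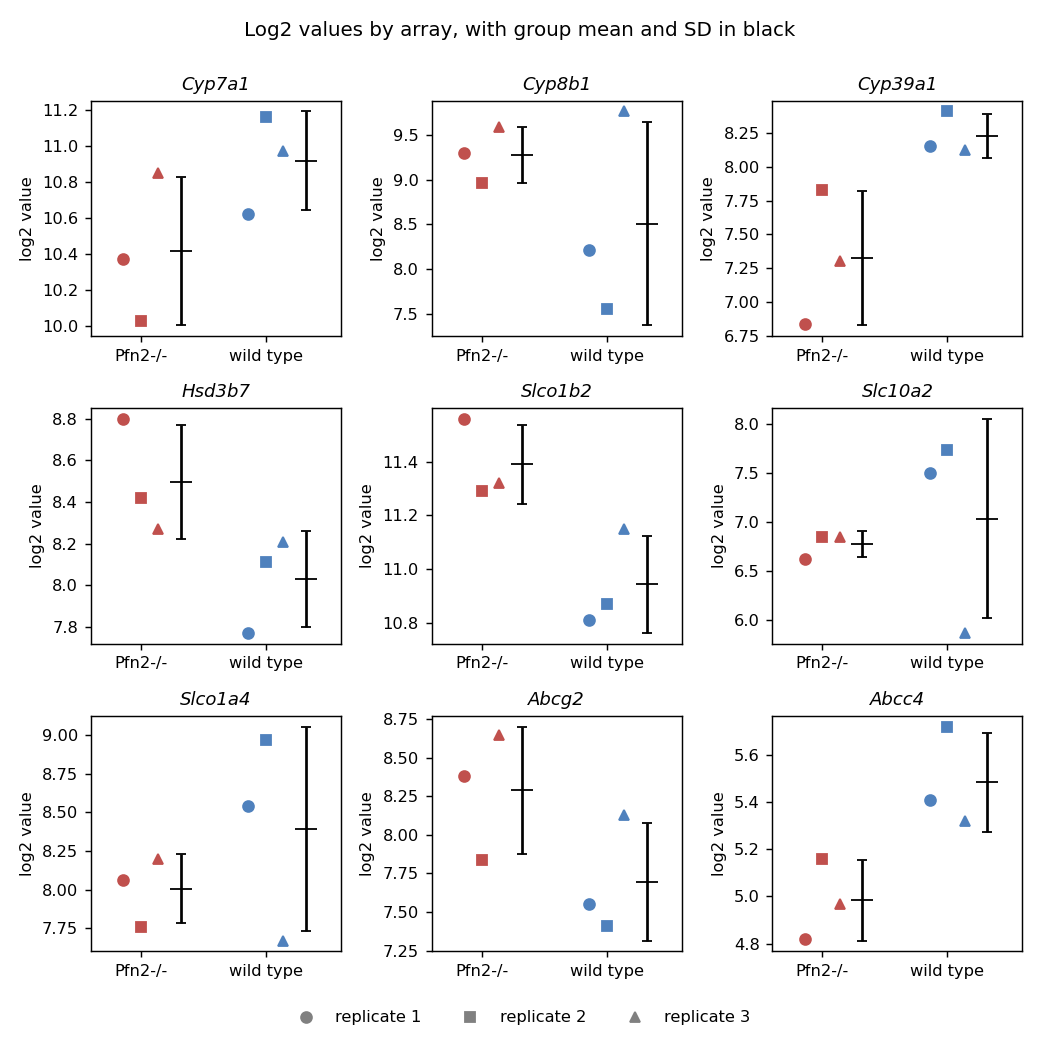
Log2 values of 9 genes in each array, with Pfn2-/- at the left and wild type at the right of each panel, one marker shape per replicate number, and the group mean with its SD in black (n = 3). Pfn2-/- values lay above wild type without overlap for Hsd3b7 and Slco1b2 and below it for Cyp39a1 and Abcc4, while wild-type replicate 3 (triangle) stood apart for Cyp8b1, Slc10a2 and Slco1a4.

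Among canalicular export genes Abcg2 had the largest difference, and the main bile salt pump was not separated. The bile salt export pump gene Abcb11 lay at 10.41, 10.36 and 10.18 in Pfn2-/- livers and at 10.10, 10.35 and 10.21 in wild-type livers. These ranges overlapped, with a difference of 0.10 (SE 0.13, 95% confidence interval -0.19 to 0.38). Abcc2, the conjugate exporter MRP2, lay at 11.11, 11.12 and 10.85 in Pfn2-/- livers and at 10.86, 11.15 and 10.96 in wild-type livers, a difference of 0.04 (SE 0.14). Abcb4, which moves phosphatidylcholine into bile, lay at 9.59, 9.42 and 9.73 in Pfn2-/- livers and at 9.40, 9.39 and 9.29 in wild-type livers. Its groups were parted by a narrow gap, and the difference was 0.22 (SE 0.13, adjusted p = 0.953 by limma). The phospholipid flippase gene Atp8b1 differed by 0.15 (SE 0.15) and Abcb1a, a P-glycoprotein gene, by -0.33 (SE 0.16, unadjusted p = 0.0757 and adjusted p = 0.938 by limma). With replicate number as a block in the limma fit, the unadjusted p of Abcb1a was 0.0421 and the adjusted p 0.856.

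Abcg2, an exporter of sulfated conjugates, urate and many drugs, lay at 8.38, 7.84 and 8.65 in Pfn2-/- livers and at 7.55, 7.41 and 8.13 in wild-type livers. Pfn2-/- replicate 2 lay below wild-type replicate 3, so the groups overlapped. The difference was 0.59, or 1.51-fold higher (SE 0.24, 95% confidence interval 0.07 to 1.12, unadjusted p = 0.0311, adjusted p = 0.915 by limma). The unadjusted p lay above 0.05 without any 1 of Pfn2-/- replicates 1 and 3 and wild-type replicates 1 and 2, and the difference was 0.41 without Pfn2-/- replicate 3. Over the 6 canalicular genes 5 differences lay above 0 and 1 below, with a median of 0.12.

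Of the basolateral exporters Abcc4 was lower in every Pfn2-/- liver. Abcc4 encodes MRP4, which exports bile acids together with glutathione across the sinusoidal membrane and is known to increase in cholestasis. Its values were 4.82, 5.16 and 4.97 in Pfn2-/- livers and 5.41, 5.72 and 5.32 in wild-type livers, and the groups did not overlap. All these values lay above the array medians of 4.36 to 4.41, but the row was dim beside most of the group. The difference was -0.50, or 1.41-fold lower (SE 0.15, 95% confidence interval -0.83 to -0.17, unadjusted p = 0.00761, adjusted p = 0.791 by limma). Abcc3, which exports glucuronides and bile acids at the same membrane, lay at 8.83 to 9.07 in Pfn2-/- livers and at 8.71 to 8.98 in wild-type livers (difference 0.12, SE 0.13). Abcc6, a family member known for ATP release rather than for bile acid transport, differed by 0.09 (SE 0.16).

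Slc51a, the alpha subunit of the organic solute transporter that exports bile acids from ileal and bile duct cells, lay at 3.77, 3.56 and 3.77 in Pfn2-/- livers and at 3.81, 3.85 and 3.83 in wild-type livers. All 6 values were below the median of their array, the sole such case among the 32 genes, so its difference of -0.13 (SE 0.12) lies where the array measures poorly, although the groups did not overlap.

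The receptors differed by less than 0.30. Fgfr4, through which the intestinal hormone FGF15 represses Cyp7a1, lay at 7.04, 6.86 and 6.84 in Pfn2-/- livers and at 7.07, 6.95 and 6.89 in wild-type livers, a difference of -0.06 (SE 0.12, 95% confidence interval -0.33 to 0.22). Its co-receptor gene Klb differed by -0.24 (SE 0.16). Klb lay at 7.50 in Pfn2-/- replicate 3 and at 7.90 to 8.19 in the other 5 arrays. Gpbar1, the membrane receptor TGR5 of sinusoidal, bile duct and immune cells, lay at 4.91 to 5.11 in Pfn2-/- livers and at 4.50 to 5.13 in wild-type livers (0.28, SE 0.17).

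Animals of a genotype differed more for some genes than for others. The residual SD within genotypes had a median of 0.20 over the 32 genes and of 0.17 over all genes. It was largest for Cyp8b1 (0.84), Slc10a2 (0.72) and Slco1a4 (0.49) and smallest for Cyp27a1 and Slc27a5 (0.06 each). For the first 3 the spread lay mainly among wild-type livers. The SD of Cyp8b1 was 0.32 in Pfn2-/- and 1.14 in wild-type livers, that of Slc10a2 was 0.13 and 1.01, and that of Slco1a4 was 0.22 and 0.66 in the same order, and the difference in spread was not tested. Wild-type replicate 2 held the highest or the lowest value of a gene in 16 of 64 cases (25%), against 17.4% over all genes, and each other array in 8 to 11 cases.

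Single arrays moved the count of genes at an unadjusted p under 0.05. Without wild-type replicate 3 there were 10, among them Cyp8b1, Slc10a2, Slco1a1, Slco1a4 and Gpbar1, with 7.03% of all genes. Without Pfn2-/- replicate 1 there were 3, namely Cyp39a1, Slco1b2 and Abcc4, with 4.37% of all genes. Those 3 genes stayed below that threshold in each of the 17 other ways of processing that had been listed, and 0 of the 32 genes passed the adjusted threshold in any of them.

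**Figure D4:**
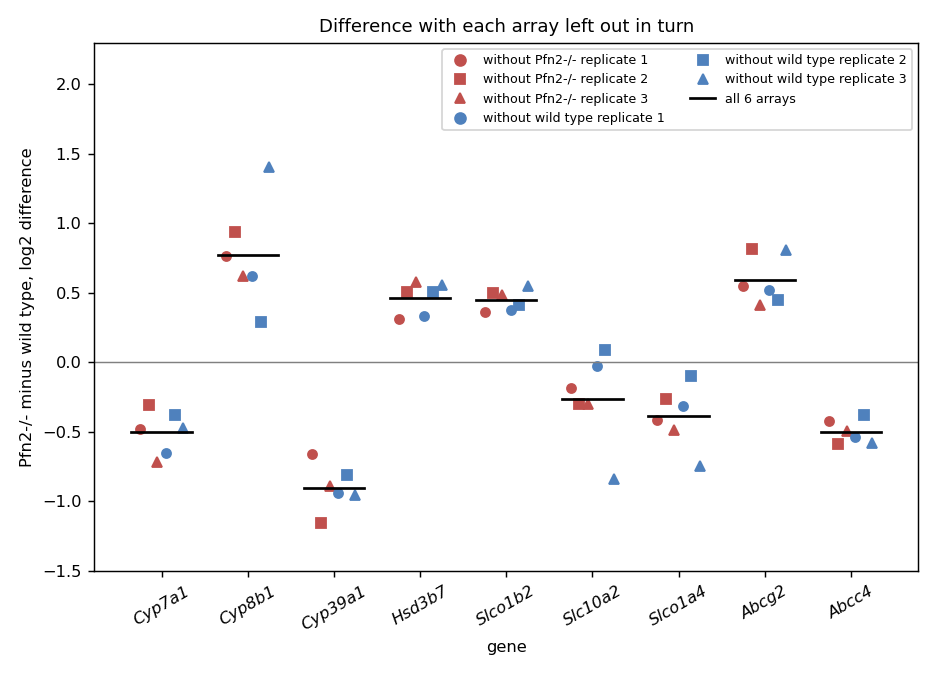
Log2 difference (Pfn2-/- minus wild type) of 9 genes when each array is left out in turn, one marker per array left out, with the black bar giving the difference over all 6 arrays. Cyp39a1 and Abcc4 stayed below 0 and Hsd3b7, Slco1b2 and Abcg2 above it, while Cyp8b1 ran from 0.29 to 1.40 and Slc10a2 from -0.84 to 0.09.

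Genes that regulate bile acid synthesis and transport were measured beside them. Beside the counts of this and each later list, 2.67% of all genes were higher and 2.62% lower at an unadjusted p under 0.05. Of 27 listed regulators 25 were measured, and 4 were lower and 0 higher at an unadjusted p under 0.05, with a median of -0.06 and 0 past the adjusted threshold. The bile acid receptor gene Nr1h4 (FXR) lay at 9.07, 8.95 and 9.06 in Pfn2-/- livers and at 9.14, 9.12 and 9.15 in wild-type livers. Its difference was -0.11 (SE 0.11), and its groups did not overlap. Groups did not overlap for 4 of the 25 regulators (16%), all lower, against 9.85% of all genes. Nr0b2 (SHP), a repressor that FXR induces, lay at 7.03, 6.73 and 6.48 in Pfn2-/- livers and at 6.61, 6.46 and 6.27 in wild-type livers, with overlapping groups and a difference of 0.30 (SE 0.16). The activators of Cyp7a1 and Cyp8b1, Nr5a2 and Hnf4a, differed by -0.06 (SE 0.19) and -0.10 (SE 0.18). The 4 lower regulators were Jun (-0.65, SE 0.15), the coactivator gene Ppargc1a (-0.66, SE 0.25), Cebpb (-0.45, SE 0.15) and the xenobiotic receptor gene Nr1i2 (-0.41, SE 0.14).

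Of 38 other genes of bile acid metabolism and bile flow 32 were measured, and 5 were higher and 0 lower at that threshold, with a median of 0.04 and 0 past the adjusted one. The 5 were Cyp7b1, the ketosteroid reductase gene Akr1c6 (0.58, SE 0.13), the acyltransferase gene Acnat1 (0.66, SE 0.22), the bile acid sulfotransferase gene Sult2a8 (0.43, SE 0.15) and the channel gene Aqp9 (0.40, SE 0.12).

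Gene lists for several states of the animals also differed between livers, and their part in the results was not tested. Of 16 genes known to be more abundant in male liver, 12 were higher at an unadjusted p under 0.05, against 2.67% of all genes. This list, like the others, was chosen with earlier results of these data known, so the count is not independent of them. Its differences ran from -0.09 for Egfr to 3.23 for Moxd1, with a median of 0.66. The list holds Cyp7b1, which was among the 12, and Slco1a1, which was not (unadjusted p = 0.113 by limma). The sex of the animals is not reported here. The mean log2 level of the 16 genes was 9.64, 9.11 and 9.54 in Pfn2-/- livers and 8.78, 8.18 and 8.53 in wild-type livers, without overlap. Genes known to respond to fasting had mean levels of 7.36, 7.46 and 7.87 in Pfn2-/- livers and 8.38, 8.20 and 8.13 in wild-type livers, also without overlap, and 5 of 13 were lower and 1 higher at that threshold.

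Genes of the acute-phase response, made by hepatocytes during inflammation, were high in 2 Pfn2-/- livers. Their mean level over 15 genes was 9.86, 9.03 and 10.16 in Pfn2-/- livers and 9.03 to 9.07 in wild-type livers, and 3 were higher at an unadjusted p under 0.05. In Pfn2-/- replicate 2 this mean lay at the wild-type level, but single genes did not. Saa3 (6.69, wild type 6.07 to 6.16) and Socs3 (6.13, wild type 5.05 to 5.51) lay above all wild-type livers there. Orm2 (6.44, wild type 6.75 to 7.42) and Serpina3n (10.73, wild type 11.11 to 11.37) lay below them. Of the 6 bile acid genes at an unadjusted p under 0.05, Pfn2-/- replicate 2 was the Pfn2-/- liver nearest to the wild-type mean for Cyp39a1, Slco1b2, Abcg2 and Abcc4. Replicate 3 was nearest for Hsd3b7 and Cyp7a1, and replicate 2 was farthest for Cyp7a1. With Pfn2-/- replicates 1 and 3 left out, an alternative chosen after the data were seen in which the remaining Pfn2-/- array is assumed to vary like the wild-type arrays, the differences were -0.40 for Cyp39a1, 0.39 for Hsd3b7, 0.35 for Slco1b2, 0.14 for Abcg2 and -0.32 for Abcc4. These follow from where replicate 2 lay and are no separate evidence. The difference of Cyp7a1 was then -0.89. Whether the acute-phase state had a part in any of these differences was not tested.

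Wild-type replicate 3, which stood apart for Cyp8b1, Slc10a2 and Slco1a4, also stood apart in 9 lipogenic genes, a list added after the data were seen. Their mean level was 8.92, 8.60 and 8.65 in Pfn2-/- livers and 8.70, 8.81 and 10.39 in wild-type livers, and 2 of the 9 were lower at an unadjusted p under 0.05. Several clock genes set Pfn2-/- replicate 3 apart from replicates 1 and 2. Replicate 3 was the Pfn2-/- liver with the highest Cyp7a1 and the lowest Dbp, and a link between them was not tested. Dbp, a clock output factor known to act on Cyp7a1, lay at 8.73, 9.06 and 6.06 in Pfn2-/- livers and at 8.31, 8.47 and 8.35 in wild-type livers. Nr1d1 lay at 9.25, 9.16 and 6.26 in Pfn2-/- livers and at 7.38, 7.17 and 6.74 in wild-type livers. Pfn2-/- replicates 1 and 2 thus lay above all wild-type livers and replicate 3 below them. For Hlf replicates 1 and 2 (6.65 and 6.70) lay inside the wild-type range of 6.50 to 6.81. Arntl was highest in Pfn2-/- replicate 3 (7.82), so genes of opposite direction offset each other in a mean. The mean of 14 clock genes was 6.92, 7.14 and 6.65 in Pfn2-/- livers and 6.80 to 6.92 in wild-type livers. Of the 14, 1 was higher at an unadjusted p under 0.05.

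Bile duct cells express Slc10a2, Slc51a and Gpbar1. In whole tissue, fewer cells of a type and less RNA per cell cannot be told apart. The mean level of 10 bile duct markers was 4.40 to 4.57 in Pfn2-/- livers and 4.35 to 4.38 in wild-type livers, and 2 were higher at an unadjusted p under 0.05, Sox9 (0.58, SE 0.20) and Cftr (0.33, SE 0.13), the second below the lower quartile of every array. The keratin genes Krt7 and Krt19 differed by 0.02 (SE 0.18) and 0.05 (SE 0.15). Over 11 hepatocyte markers the mean was 10.91 to 10.97 in Pfn2-/- livers and 10.90 to 11.14 in wild-type livers. Of these 1 was lower at that threshold, Ass1 (-0.49, SE 0.18).

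**Figure D5:**
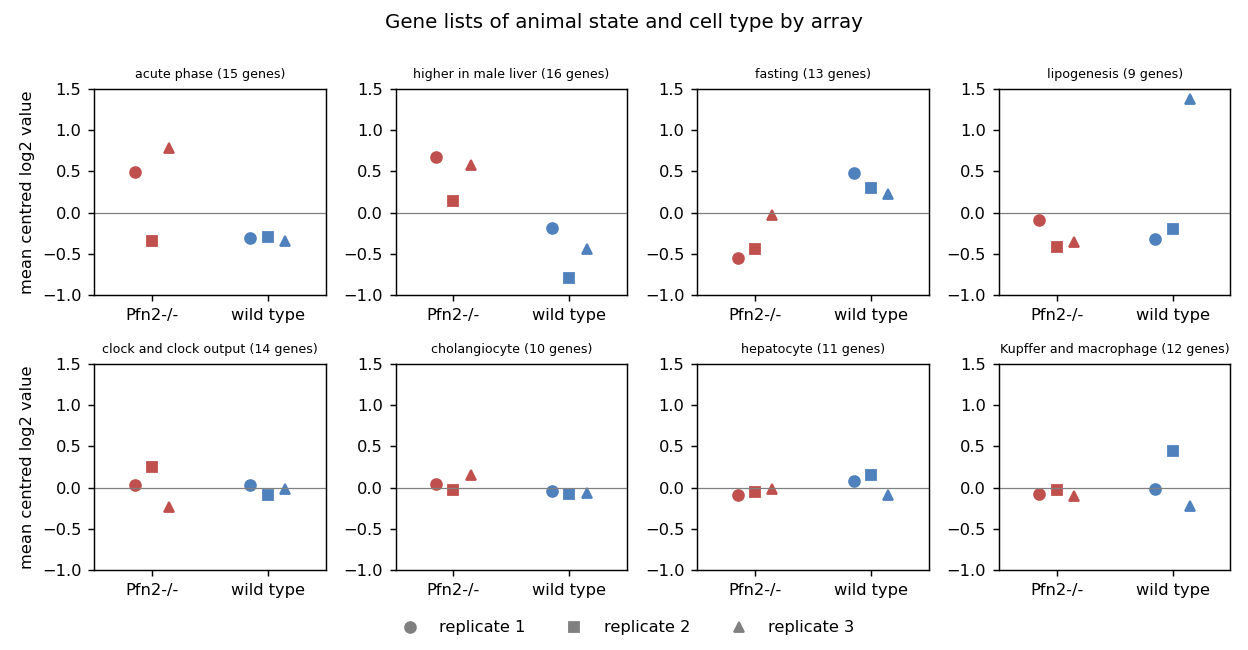
Mean over each gene list of the log2 value minus the gene's own mean over 6 arrays, one point per array, with Pfn2-/- left and wild type right and one marker shape per replicate number. The mean of male-biased genes lay higher and that of fasting genes lower in all Pfn2-/- arrays. The mean of acute-phase genes was high in Pfn2-/- replicates 1 and 3, and that of lipogenic genes in wild-type replicate 3.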

How the data were processed

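Total RNA of 6 whole livers was labelled with biotin for Affymetrix arrays, per the labels' protocols. The values are on a log2 scale and were deposited by the authors for every row in each array. RMA and limma were used per the submitters' processing notes, and neither version nor genome build is stated there. RMA removes shifts shared by all genes and compresses differences of dim rows. Of 34390 rows 23521 had exactly 1 symbol, 1814 had several and 9055 were not listed. Groups came from the titles.

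From these values, genotypes were compared over all 22180 genes in limma 3.58.1 under R 4.3.3 (lmFit, eBayes without trend, genotype as the sole term, two-sided), with Benjamini-Hochberg adjustment over all genes. The fit was tested on simulated data. All genes of the group are described. Values in every array are given for those at an unadjusted p under 0.05, those without overlap and a representative of each role, and for Slc10a2, Slco1a1, Slco1a4 and Slc51a chosen after their values were seen. The members, gene lists and motifs were chosen with earlier results of these data known. The alternatives were 3 normalizations, 2 filters on dim genes, 2 choices of row, a trended and a robust eBayes, weights per array, a block for replicate number, and leaving out each array. The labels give no scan date or other batch. Same-numbered animals of the genotypes shared an age, but the labels name no shared litter, batch or day. Replicate numbers were therefore not taken to pair animals in the main comparison, and a fit with a block for replicate number stands among the alternatives. Deviations of same-numbered arrays correlated at -0.08, 0.16 and 0.02 across genes, which cannot decide whether animals of the same age were paired.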

Additional observations from a re-analysis of the deposited data

How the results depend on the processing

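Of the 32 genes, 25 kept the sign of their difference in all of the 17 listed ways of processing that measured them and 7 did not. Those 7 had small or array-dependent differences, and with single arrays left out they ranged from -0.19 to 0.12 for Cyp46a1, from -0.20 to 0.14 for Akr1d1, from -0.0033 to 0.277 for Slc10a1, from -0.842 to 0.0883 for Slc10a2, from -0.175 to 0.085 for Slco2b1, from -0.0283 to 0.125 for Abcc2 and from -0.0317 to 0.258 for Abcc6. Slco2b1 also lay at 0.0083 with array weights. With single arrays left out, genes of the group at an unadjusted p under 0.05 numbered 3 to 10, those whose groups did not overlap 9 to 20, and genes of the whole series past the adjusted threshold 0 to 6. The share of all genes at an unadjusted p under 0.05 then was 4.02% to 7.03%. The share of all genes without overlap then was 17.5% to 22.2%, since fewer arrays overlap less. Among all genes 2 passed with array weights and 7 with a block for replicate number. With that replicate block 8 genes of the group had an unadjusted p under 0.05, with 5.73% of all genes. They were Cyp8b1 (unadjusted p = 0.0201 by limma with the block) and Abcb1a (0.0421) beside the 6 of the unblocked comparison, and 0 passed the adjusted threshold. Not every array correlated best with its own number. The filters left out Slc51a. In 2 alternatives chosen after the data were seen, leaving out both replicates 3 gave 13 genes at an unadjusted p under 0.05 (8.01% of all genes), 27 without overlap (36.4% of all genes) and 24 genes past the adjusted threshold in the series, 0 of them in the group, with Cyp46a1 at 0.125 and Slco2b1 at 0.19. Leaving out Pfn2-/- replicates 1 and 3, so that 1 Pfn2-/- array remained, gave differences of 0.063 for Slco2b1 and 0.01 for Klb. Medians of the roles stayed between -0.12 and 0.25 throughout.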

Other observations

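Other lists measured in the same livers gave the following values, and 0 of their genes passed the adjusted threshold of the limma comparison. Of all genes, 2.67% were higher and 2.62% lower at an unadjusted p under 0.05. Of 12 macrophage markers 1 was lower and 0 were higher at an unadjusted p under 0.05, with mean log2 levels of 7.17 to 7.24 in Pfn2-/- livers and 7.05 to 7.72 in wild-type livers. Of 12 endothelial markers 1 was lower and 0 were higher (7.54 to 7.72 in Pfn2-/- livers and 7.60 to 7.89 in wild-type livers). Of 12 stellate cell markers 2 were lower, Acta2 and Col3a1, and 0 higher (6.78 to 6.97 in Pfn2-/- livers and 6.81 to 7.13 in wild-type livers). Of 9 small intestine markers 0 differed at that threshold (5.07 to 5.22 in Pfn2-/- livers and 5.02 to 5.32 in wild-type livers). Among 10 heat shock genes, a list added after the data were seen, 1 was higher, and Pfn2-/- replicate 3 stood apart at 7.67 against 6.70 and 6.72 in the other Pfn2-/- livers and 6.70 to 6.91 in wild-type livers.

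Carriers of cholesterol into bile varied across the wild-type livers like Slc10a2. Abcg5 lay at 7.50, 7.75 and 7.24 in Pfn2-/- livers and at 8.01, 8.18 and 7.47 in wild-type livers, and Abcg8 at 8.34, 8.53 and 7.99 in Pfn2-/- livers and at 8.73, 8.95 and 8.00 in wild-type livers. Both were lowest in replicate 3 of either genotype. They were chosen after their values were seen, and the likeness was not tested.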
